A study of Mus musculus with 36 samples.

Results

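The comparison described here is that of a high with a low dose of interleukin-6 (IL-6), each given together with tumour necrosis factor α (TNFα). It covers the 12 arrays whose titles name TNF combined with high or low IL-6, of 36 arrays in the series. The TNF + IL-6 High group (6 mice) received 800 pg IL-6 with 15 pg TNFα. The TNF + IL-6 Low group (6 mice) received 50 pg IL-6 with the same 15 pg TNFα. Both were given in 1 intraperitoneal injection of 50 µl. All were individually housed male C57BL/6 mice, killed 5 h after the injection, and the hypothalamic RNA of each was hybridised to its own Affymetrix Mouse Gene 1.1 ST array. Both groups carry the same TNFα dose, so the comparison holds the IL-6 dose alone. It asks whether the hypothalamic transcriptome differed between the doses. The IL-6 High and IL-6 Low groups (6 mice each, the same IL-6 doses without TNFα) were used only to set this dose difference beside the one without TNF. The 6 Control and 6 TNF arrays entered only alternative fits over all groups.

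IL-6 binds its receptor (Il6ra), which joins the signalling chain gp130 (Il6st). Janus kinases then activate the transcription factor STAT3, whose targets include Socs3, a feedback inhibitor of the same receptor. TNFα acts through 2 receptors (Tnfrsf1a and Tnfrsf1b) on NF-kB, which drives chemokines and its own inhibitors such as Nfkbia. Both cytokines are known to reduce food intake. The hypothalamus holds the peptide neurons that set appetite, among them those making neuropeptide Y (Npy), orexin (Hcrt) and the melanocortin precursor Pomc, and it receives serotonergic fibres whose cell bodies lie in the raphe.

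The arrays were alike as a whole. The median correlation of an array with the other 11 lay between 0.982 and 0.991, and the median log2 intensity over the 18820 named genes between 6.10 and 6.31. Hypothalamic markers were present on every array, with Avp (vasopressin) between 8.34 and 10.22 and Hcrt between 8.00 and 10.06 on the log2 scale. The mean of 26 hypothalamic markers was 6.38 on TNF + IL-6 High replicate 2, the lowest, and next lowest with 6.67 and 6.66 on TNF + IL-6 Low replicates 5 and 6, against 6.98 to 7.27 on the other 9. TNF + IL-6 Low replicate 3 stood apart in pituitary hormone genes, and values without it are given beside the results that it moved most. In the array names, the numbers of the mice of TNF + IL-6 High replicates 5 and 6 also stand on 2 Control arrays, whose labels give other numbers. The labels and array names agree on the group of each of these arrays, and values without both replicates are given below.

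Of 14668 genes tested with limma, 0 (0%) differed between TNF + IL-6 High arrays and TNF + IL-6 Low arrays at an adjusted p under 0.05. The smallest adjusted p was 0.886, so every gene named below missed the threshold, whatever its interval. At an unadjusted p under 0.05, 194 genes (1.32%) were higher and 425 (2.90%) lower in TNF + IL-6 High, together 4.22% of the genes. The same rule applied to genes with no difference passes 5% of them on average. The number higher was 471 without TNF + IL-6 Low replicate 1 and 117 without TNF + IL-6 Low replicate 5. The number lower was 697 without TNF + IL-6 High replicate 2, 175 without TNF + IL-6 High replicate 5 and 278 without TNF + IL-6 Low replicate 2. Over each of these settings the count at an adjusted p under 0.05 was 0.

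The arrays set narrow limits for most genes. Standard errors of the log2 differences had a median of 0.10 (0.0956), and 14390 genes (98.1%) had a 95% interval wholly inside a fold of 1.5 in either direction. The interval of the other 278 genes reached this fold. Group means differed by more than 1.5-fold in 22 genes. Of these, 2 (0.0136% of those tested), Oas1a and Kcnj13, were higher in TNF + IL-6 High, while 20 (0.136%) were lower. The values of the groups did not overlap in 20 genes, of which 6 (0.0409%) were higher and 14 (0.0954%) lower in TNF + IL-6 High. Among genes with no difference, a fraction of 0.00216 shows no overlap on average, the smallest possible p of the exact permutation test. The 20 of 14668 genes are a smaller fraction, so a lack of overlap alone does not mark a difference here. The plot of differences against p values shows the genes lower by the fold to the left of the bulk.

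**Figure D1:**
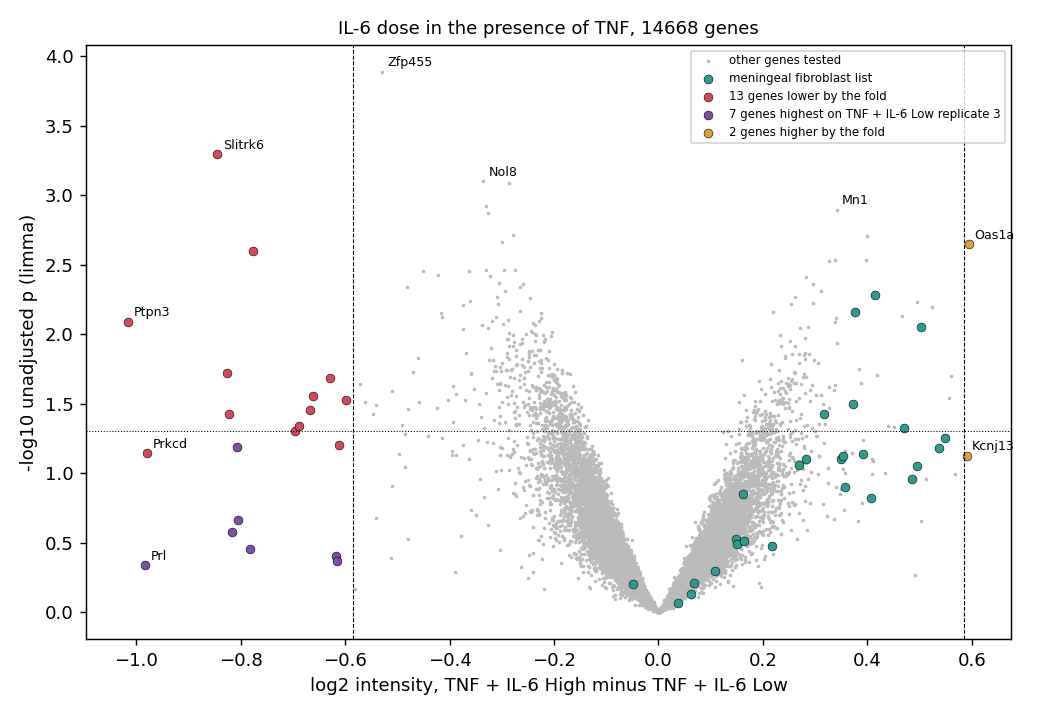
Each point is 1 of 14668 genes, with the log2 difference (TNF + IL-6 High minus TNF + IL-6 Low, 6 arrays each) on the horizontal axis and -log10 of the unadjusted p from limma on the vertical axis. Dashed lines mark a fold of 1.5, and the dotted line marks the unadjusted threshold of 0.05. The 20 genes lower by the fold are split into 13 (red) and 7 that were highest on TNF + IL-6 Low replicate 3 (purple), and 26 of 27 meningeal fibroblast genes (green) lie right of 0.

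The IL-6 pathway itself is shown first, with the sequence of a promoter that it is known to act on. Socs3 is the best known target of STAT3, and the RefSeq promoter (250 bases before to 50 after the start of the gene, GRCm38.p6, chr11:117969317-117969616, minus strand) holds 1 match to TTCNNNGAA, the core letters of a STAT site. The match, in capitals, starts 154 bases before the start of the gene. The same letters, which read alike on both strands, stand in 8.30% of the 32851 mouse promoters of this length.
Socs3: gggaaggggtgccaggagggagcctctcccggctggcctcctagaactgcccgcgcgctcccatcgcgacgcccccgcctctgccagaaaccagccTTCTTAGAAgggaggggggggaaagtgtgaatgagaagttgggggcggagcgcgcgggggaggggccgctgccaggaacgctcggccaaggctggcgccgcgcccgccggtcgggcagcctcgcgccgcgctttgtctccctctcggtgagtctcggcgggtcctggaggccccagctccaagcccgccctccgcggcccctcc

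Socs3 differed little with the IL-6 dose. Its log2 intensity was lowest at 4.61, median 5.11 and highest 5.35 in TNF + IL-6 High, against 4.64, 4.97 and 5.17 in TNF + IL-6 Low. The ranges overlapped, and 2 of 6 TNF + IL-6 High arrays lay above all TNF + IL-6 Low arrays. The difference was 0.11 ± 0.12 (SE, 95% interval -0.15 to 0.37, limma adjusted p = 0.907), so a 1.5-fold increase in measured intensity lay outside the interval. The signal was low, though over an intensity of 20 on all 6 arrays of each group. With arrays weighted by their spread, the difference was -0.01.

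Receptors and signalling proteins of the pathway were equally close, as were most genes. None of the 17 tested genes of IL-6 receptors and JAK-STAT signalling had an unadjusted p under 0.05 in limma (all genes, 4.22%). All 17 intervals lay inside the fold (all genes, 98.1%). The median difference of the 17 genes was -0.02 (all genes tested, -0.005). Il6ra averaged 6.13 ± 0.13 in TNF + IL-6 High, against 6.09 ± 0.27 in TNF + IL-6 Low (SD, n = 6 each), a difference of 0.04 with an interval of -0.20 to 0.28. Stat3 averaged 8.15 ± 0.15 and 8.13 ± 0.20 in these groups, a difference of 0.03. The signs of both of these small differences turned when single arrays were left out. Cntfr, the receptor chain for ciliary neurotrophic factor that also signals through gp130, had the smallest p of the list (0.17 ± 0.10, 95% interval -0.04 to 0.37), and its highest value stood on TNF + IL-6 High replicate 2 (10.01), without which the difference was 0.08.

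Of 21 tested STAT3 targets and acute-phase genes, 15 had a higher and 6 a lower mean in TNF + IL-6 High, with a median of 0.08, which was lowest with 0.041 when TNF + IL-6 Low replicate 5 was left out. Over all genes 48.4% had a higher mean. At an unadjusted p under 0.05, 1 was higher (Gfap) and 1 lower (Ccl2), and none passed the adjusted threshold. Gfap, the intermediate filament of astrocytes, lay between 8.61 and 9.34 with a median of 9.06 in TNF + IL-6 High, against values between 8.24 and 9.19 with a median of 8.56 in TNF + IL-6 Low. All 6 TNF + IL-6 High values lay above the median of the other group, but the ranges overlapped (difference 0.39 ± 0.15, 95% interval 0.06 to 0.71, adjusted p = 0.886). Serpina3n, an acute-phase protease inhibitor of reactive astrocytes, differed by 0.13 ± 0.16.

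Lcn2, the iron-sequestering acute-phase protein lipocalin, had the lowest difference of the list. Its median was 5.27 (4.50 to 5.82) in TNF + IL-6 High, against 5.47 (4.77 to 8.09) in TNF + IL-6 Low, and the value of 8.09 came from TNF + IL-6 Low replicate 3 alone. The difference of -0.54 ± 0.42 had a 95% interval of -1.42 to 0.34, and without that array the difference was -0.07. Among 17 genes of the list with a promoter in the RefSeq table, 5 held the STAT letters (Socs3, Fgl2, Gfap, Bcl6 and Ifitm3), with a median difference of 0.11. The letters also stood in 5 of 14 NF-kB targets (median difference -0.006) and in 3 of 19 interferon response genes (0.025). The 956 tested genes whose promoters hold these letters had a median of -0.01 and the 10560 without them -0.005.

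**Figure D2:**
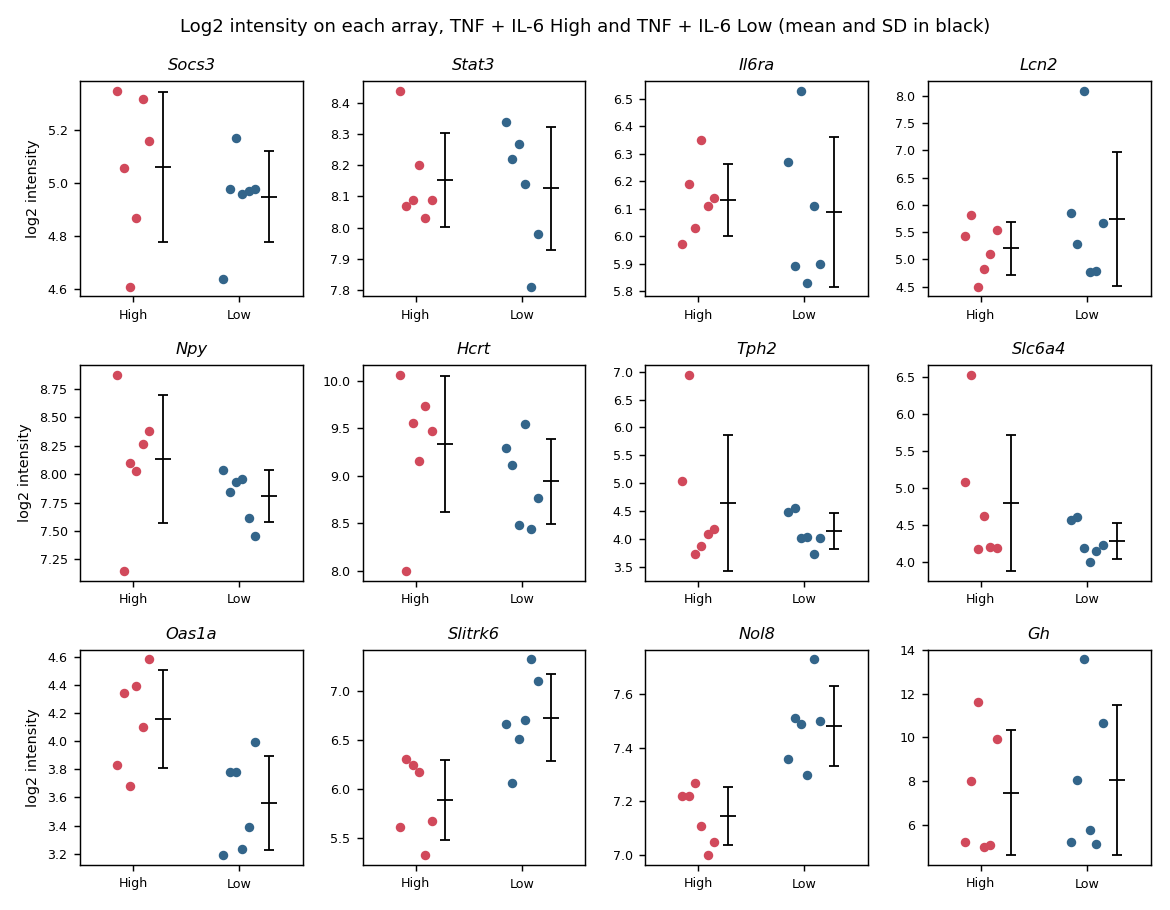
Log2 intensity of 12 genes on each array, with TNF + IL-6 High (red) left of TNF + IL-6 Low (blue) and the mean and SD of 6 arrays in black. Of these genes only Nol8 shows no overlap between the groups, the highest Tph2 and Slc6a4 values stand on TNF + IL-6 High replicate 2 (6.94 and 6.53), and Gh spans 5.01 to 13.57.

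TNF receptors and NF-kB genes, which the shared TNFα dose addresses, were close at both IL-6 doses, as were most genes. All 17 tested genes of the receptors and their signalling had intervals inside the fold, as had all 19 NF-kB targets (all genes, 98.1%). Nfkbia, the inhibitor that NF-kB induces, averaged 7.42 ± 0.22 in TNF + IL-6 High, against 7.48 ± 0.14 in TNF + IL-6 Low (SD, n = 6 each), a difference of -0.06 that was 0.05 with weighted arrays. Ccl2, a monocyte chemokine, had a difference of -0.23 ± 0.09 (95% interval -0.42 to -0.04) and was dim, with 2 of 6 TNF + IL-6 High arrays and 5 of 6 TNF + IL-6 Low arrays over an intensity of 20. Ier3, a survival gene of the immediate early type, had a difference of 0.30 ± 0.13 (95% interval 0.04 to 0.57). Birc2, an adaptor of TNF receptor complexes that restrains cell death, had -0.20 ± 0.08 (95% interval -0.37 to -0.03). None of these passed the adjusted threshold. Tgfb1, a regulator named in the study, had 0.22 ± 0.09 (95% interval 0.03 to 0.41), and its receptor Tgfbr1 had -0.18 ± 0.10.

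Oas1a, an antiviral enzyme that makes the second messenger of RNase L and is induced by interferons, was the largest difference upwards. Its promoter is printed because it shows the interferon-type letters at the gene with that difference. A role of these letters in the difference was not tested. The same window (RefSeq, GRCm38.p6, chr5:120907476-120907775, minus strand) holds 2 overlapping matches to GAAA, any 2 bases (NN) and GAAA in a row shortly before the start of the gene, together in capitals. These letters, or their complement with TTTC read on the other strand, stand in 3.44% of promoters.
Oas1a: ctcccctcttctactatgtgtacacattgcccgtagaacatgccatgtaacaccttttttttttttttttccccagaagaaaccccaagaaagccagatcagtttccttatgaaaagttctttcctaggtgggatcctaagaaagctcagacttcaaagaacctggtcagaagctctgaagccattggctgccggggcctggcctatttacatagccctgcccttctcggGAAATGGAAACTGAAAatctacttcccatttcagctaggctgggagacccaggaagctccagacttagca

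Oas1a had a low signal. Its values were 3.68 at the lowest, 4.22 at the median and 4.58 at the highest in TNF + IL-6 High, against 3.19, 3.58 and 3.99 in TNF + IL-6 Low. It lay over an intensity of 20 on 3 TNF + IL-6 High arrays and on 0 TNF + IL-6 Low arrays, so it entered the test only through the group in which it was higher. The groups overlapped, with 4 of 6 TNF + IL-6 High values above all of the others (difference 0.59 ± 0.17, 95% interval 0.24 to 0.94, adjusted p = 0.886). The difference between the IL-6 doses without TNF was -0.20.

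Other interferon genes lay on both sides of 0. Of 22 tested genes of the interferon response, which do not include Oas1a, 8 had a higher and 14 a lower mean in TNF + IL-6 High (all genes, 51.6% lower), and 0 had an unadjusted p under 0.05 in limma. Their median of -0.04 was 0.002 without TNF + IL-6 Low replicate 3. Usp18, a brake on the interferon receptor, had 0.20 ± 0.12 (0.13 without that array), while Irgm1, an interferon-induced GTPase, had -0.20 ± 0.10. The paired GAAA letters stood in 11 of 19 promoters of the list, and the median difference of those genes was -0.07.

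Genes of appetite and of serotonin were then examined, since the study asked about anorexia and serotonin turnover. Npy, the main orexigenic peptide of the arcuate nucleus, had a median of 8.18 (7.15 to 8.87) in TNF + IL-6 High, against 7.88 (7.46 to 8.04) in TNF + IL-6 Low. In TNF + IL-6 High 4 arrays lay above all TNF + IL-6 Low arrays, and replicate 2, the array with the lowest hypothalamic marker mean, lay below all of them. The difference of 0.32 ± 0.25 (SE) had a two-sided exact permutation p of 0.221 (0.331 adjusted over 3 genes). Without TNF + IL-6 High replicate 2 it was 0.52 with an exact permutation p of 0.00866, and without TNF + IL-6 High replicate 1 it was 0.18 with an exact permutation p of 0.442. Hcrt, the wake- and feeding-promoting orexin, showed the same arrangement, with a median of 9.51 (8.00 to 10.06) in TNF + IL-6 High, against 8.94 (8.44 to 9.55) in TNF + IL-6 Low, and its lowest value was again on replicate 2 of TNF + IL-6 High. Npy and Hcrt are themselves among the 26 hypothalamic markers, so their low values on that array are part of its low marker mean. The part of the marker level in these values was not tested. Among 11 orexigenic genes and 19 anorexigenic genes, none had an unadjusted p under 0.05 in limma. Cartpt, an anorexigenic peptide, had a difference of 0.24 ± 0.15, and its value of 8.56 on TNF + IL-6 High replicate 1 stood away from the other 5 (7.72 to 7.79). Without that array the difference was 0.10. Insr, the insulin receptor, had -0.19 ± 0.10.

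Serotonin synthesis starts with Tph2, the neuronal tryptophan hydroxylase, and the transporter Slc6a4 ends its signal by uptake. Tph2 averaged 4.64 ± 1.22 in TNF + IL-6 High, against 4.14 ± 0.32 in TNF + IL-6 Low (SD, n = 6 each, difference 0.50, exact permutation p = 0.422, adjusted p = 0.422). Slc6a4 averaged 4.80 ± 0.92 and 4.28 ± 0.25 in the same groups (difference 0.51, exact permutation p = 0.190, adjusted p = 0.331). Both transcripts belong to raphe neurons and were dim, and Tph2 was over an intensity of 20 on 2 arrays of each group. Without TNF + IL-6 High replicate 2 the differences were 0.04 and 0.17, and without TNF + IL-6 High replicates 5 and 6 together they were 0.76 (exact permutation p = 0.305) and 0.82 (exact permutation p = 0.0762). On that array the mean of the 10 other tested markers of raphe serotonergic neurons was 6.37, second to 6.42 on TNF + IL-6 High replicate 1, while the remaining 10 arrays had 5.73 to 6.26. The part of raphe tissue in these values was not tested.

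Breakdown and reception of serotonin were measured at higher signal. Maob, the monoamine oxidase of astrocytes and serotonergic neurons, had a median of 8.08 (7.70 to 8.26) in TNF + IL-6 High, against 8.35 (8.07 to 8.56) in TNF + IL-6 Low. All 6 TNF + IL-6 High values lay below the median of TNF + IL-6 Low, with some overlap (difference -0.30 ± 0.10, 95% interval -0.51 to -0.09, adjusted p = 0.886). It was the 1 gene of 14 of this list with an unadjusted p under 0.05, while Maoa, the other oxidase, had -0.03. Of 12 serotonin receptors, Htr7 had -0.21 ± 0.09 (95% interval -0.40 to -0.02) and Htr1d 0.21 ± 0.09 (95% interval 0.01 to 0.41). All 6 tested genes of the kynurenine pathway, the other fate of tryptophan, had intervals inside the fold (all genes, 98.1%). Over the 14 response lists together, 204 genes were tested, of which 5 were higher and 5 lower at an unadjusted p under 0.05 (4.90%, against 4.22% of all genes). Of the 204, 190 had intervals inside the fold, a lower share than the 98.1% of all genes.

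The 20 genes of smallest p, 10 in each direction, were mostly modest in size. Zfp455, a zinc finger protein, had the smallest p of all. It lay between 4.75 and 5.21 with a median of 4.84 in TNF + IL-6 High, against values between 5.21 and 5.77 with a median of 5.39 in TNF + IL-6 Low. Only 1 TNF + IL-6 High array reached the lowest value of the other group (difference -0.53 ± 0.11, 95% interval -0.76 to -0.30, adjusted p = 0.886). Its neighbour in family, Zfp457, had -0.28 ± 0.08. These zinc finger genes have near copies in the mouse genome, and probes could be shared between them.

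Nol8, a nucleolar protein, had no overlap. Its values were 7.0 to 7.27 in TNF + IL-6 High, against 7.30 to 7.73 in TNF + IL-6 Low, with a difference of -0.34 ± 0.08 (95% interval -0.51 to -0.16). Tox3, a neuronal transcription factor, was likewise apart, with 7.32 to 7.60 in TNF + IL-6 High, against 7.72 to 7.85 in TNF + IL-6 Low. In the other direction, Mn1, a transcriptional co-regulator, had 5.81 to 5.98 in TNF + IL-6 High, against 5.43 to 5.83 in TNF + IL-6 Low (difference 0.34 ± 0.09, 95% interval 0.15 to 0.53). Sh3tc2, a protein of myelinating Schwann cells, did not overlap, with 4.62 to 5.09 in TNF + IL-6 High, against 4.30 to 4.61 in TNF + IL-6 Low. Mrps26, a mitochondrial ribosomal protein, had 0.40 ± 0.11.

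The array names carry row letters. Rows F and G held 2 arrays of each group, and rows E and H held 1 array of each group. Of the 20 genes of smallest p, 10 had the same direction without TNF. The groups did not overlap in 5 of the 20, which were chosen on these same values.

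The genes lower by more than 1.5-fold fell into 2 sets by the array on which they were highest, a split made after their values were seen, and neither set is given a test as a group. The larger set holds 13 genes, among them Ptpn3, Prkcd, Slitrk6, Synpo2, Shox2, Prkch, Ramp3, Tcf7l2 and Lhx9. Prkcd (protein kinase C δ), Tcf7l2 (a transcription factor of Wnt signalling) and Shox2 are known as genes of thalamic neurons, and Slitrk6 is a membrane protein that shapes neurites. In bulk tissue, fewer cells of a type and less RNA per cell cannot be told apart. Ptpn3, a protein tyrosine phosphatase, had the lowest difference of all genes tested.

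Ptpn3 had a median of 7.18 (6.34 to 8.54) in TNF + IL-6 High, against 8.35 (7.34 to 9.03) in TNF + IL-6 Low. Replicates 1, 5 and 6 of TNF + IL-6 High had the 3 lowest values, below all TNF + IL-6 Low arrays, while replicate 2 lay near the top (difference -1.01 ± 0.34, a fold of 2.02, 95% interval -1.73 to -0.30, adjusted p = 0.886). The array carries 12 probe clusters for Ptpn3, and 10 of them were lower by more than the fold, with differences of -1.08 to -0.69, while the highest of the 12 was -0.42. Prkcd followed the same arrays, with a median of 7.32 (6.37 to 9.55) in TNF + IL-6 High, against 8.62 (6.82 to 9.82) in TNF + IL-6 Low (difference -0.98 ± 0.51, 95% interval -2.05 to 0.10). Slitrk6 was the firmest of the set, with 5.32 to 6.31 in TNF + IL-6 High, against 6.06 to 7.33 in TNF + IL-6 Low (difference -0.84 ± 0.20, 95% interval -1.26 to -0.43, adjusted p = 0.886).

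The 13 genes moved together from array to array. Their mean was 5.88, 7.67, 6.85, 6.79, 5.85 and 5.97 on TNF + IL-6 High replicates 1 to 6, and 7.34, 6.42, 6.86, 7.20, 7.73 and 7.99 on TNF + IL-6 Low replicates 1 to 6. Replicates 1, 5 and 6 of TNF + IL-6 High were low, and replicates 5 and 6 of TNF + IL-6 Low were high together with TNF + IL-6 High replicate 2. In 12 of the 13 genes, all of TNF + IL-6 High replicates 1, 5 and 6 lay below all 6 TNF + IL-6 Low arrays. The genes were chosen as lower in TNF + IL-6 High, and these replicates were picked after their values were seen. The count is a description, and its share over all genes was not computed. The 3 arrays of highest mean were also those with the lowest hypothalamic marker mean (6.38, 6.67 and 6.66), and the part of tissue make-up in the result was not tested.

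The direction held in rows E, G and H of the array names but not in row F. In row F, with 2 arrays of each group, 2 of the 13 genes were lower in TNF + IL-6 High and the differences ran from -0.06 to 1.5. In row G, also with 2 of each, all 13 were lower, with -1.71 to -0.82. In rows E and H, with 1 array of each group, all 13 were lower as well, with -2.45 to -0.98 in row E and -3.02 to -1.44 in row H. Leaving out 1 array left all 13 past the fold for TNF + IL-6 High replicates 2, 3 and 4 and for TNF + IL-6 Low replicates 1 to 4. It left 7, 6 and 7 without TNF + IL-6 High replicates 1, 5 and 6, and 8 and 6 without TNF + IL-6 Low replicates 5 and 6. Without TNF + IL-6 High replicates 5 and 6 together, 2 of the 13 remained.

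**Figure D3:**
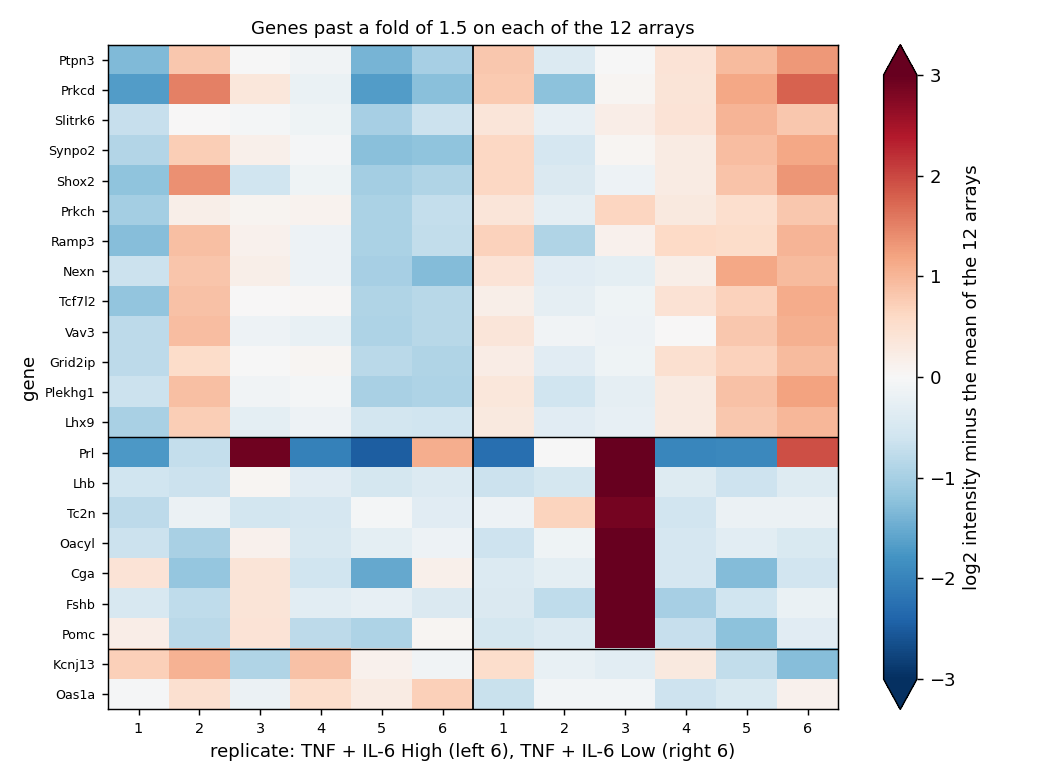
Log2 intensity of the 22 genes past a fold of 1.5 on each of the 12 arrays, as the deviation from the gene's mean over the arrays (red above, blue below, beyond the scale in the end colours). Columns are replicates 1 to 6 of TNF + IL-6 High and then of TNF + IL-6 Low. The 13 genes at the top are low on TNF + IL-6 High replicates 1, 5 and 6, the next 7 are high on TNF + IL-6 Low replicate 3, and the last 2 are Kcnj13 and Oas1a.

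The smaller set holds 7 genes, Prl, Lhb, Tc2n, Oacyl, Cga, Fshb and Pomc, which were highest on TNF + IL-6 Low replicate 3. Prl (prolactin), Lhb and Fshb (the β chains of the gonadotropins), Cga (their shared α chain) and Pomc (the precursor of corticotropin) are hormones of the anterior pituitary, and 5 of the 7 are in the pituitary marker list. Lhb was 10.64 on this array, against 4.97 to 5.68 on the 6 TNF + IL-6 High arrays and 4.98 to 5.23 on the other 5 TNF + IL-6 Low arrays. Pomc, which arcuate neurons also make, was 11.45 there, where TNF + IL-6 High arrays had 5.46 to 6.80 and the other 5 TNF + IL-6 Low arrays 5.16 to 6.03. Without TNF + IL-6 Low replicate 3, none of the 7 was lower by the fold, and the 6 that were still tested had differences of 0.00 to 0.35. Tc2n was then under the minimum intensity.

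Growth hormone (Gh) showed that pituitary transcripts were not limited to 1 array. It was 5.21, 7.99, 11.63, 5.01, 5.09 and 9.94 on TNF + IL-6 High replicates 1 to 6 and 5.21, 8.04, 13.57, 5.76, 5.13 and 10.65 on TNF + IL-6 Low replicates 1 to 6. In both groups the arrays numbered 3, 6 and 2 were the highest, in this order, and the group difference was -0.58 ± 1.38 (95% interval -3.49 to 2.33). Prl had the same order, with 8.56, 6.73 and 4.92 in TNF + IL-6 High and 12.82, 7.58 and 5.64 in TNF + IL-6 Low. Cga did not, and in TNF + IL-6 High it was highest on replicate 1 (6.36). Of 11 tested pituitary markers, 11 had a lower mean in TNF + IL-6 High (all genes, 51.6%), with a median of -0.58, and the median was 0.105 without TNF + IL-6 Low replicate 3. The part of pituitary tissue in these values was not tested.

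**Figure D4:**
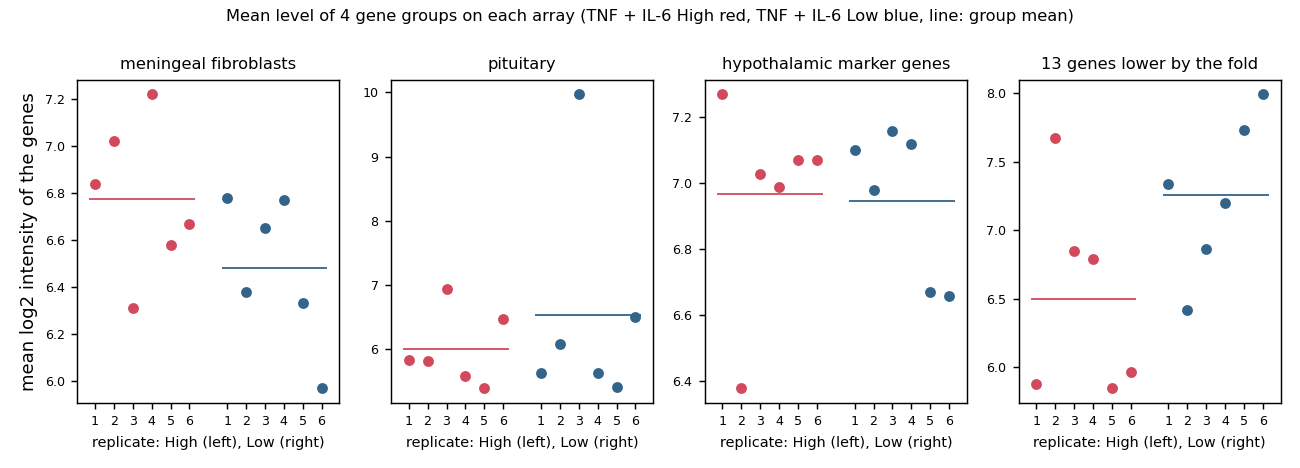
Mean log2 intensity of 4 groups of genes on each array, with TNF + IL-6 High replicates 1 to 6 (red) left of TNF + IL-6 Low replicates 1 to 6 (blue) and lines at the group means. Pituitary genes peak on TNF + IL-6 Low replicate 3 (9.97), the hypothalamic markers are lowest on TNF + IL-6 High replicate 2 (6.38), and the 13 genes are low on TNF + IL-6 High replicates 1, 5 and 6.

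Meningeal fibroblast genes leaned the other way. Fibroblasts of the brain coverings make collagen, retinoic acid and transporters for organic anions, and they lie in the leptomeninges and vessel sheaths. Of 27 tested markers, 26 had a higher mean in TNF + IL-6 High (all genes, 48.4%), with a median of 0.35. At an unadjusted p under 0.05, 6 were higher (all genes, 1.32%) and 0 lower (all genes, 2.90%), and 0 passed the adjusted threshold. The list was chosen with earlier results of these data known, and its genes can move together, so these counts are descriptions. The part of tissue make-up in them was not tested. Leaving out 1 array gave medians of 0.239 (without TNF + IL-6 High replicate 4) to 0.432 (without TNF + IL-6 High replicate 3).

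Crabp2, a binding protein for retinoic acid, had a median of 5.37 (5.11 to 5.69) in TNF + IL-6 High, against 4.93 (4.67 to 5.38) in TNF + IL-6 Low. All 6 TNF + IL-6 High values were above the other group's median, with overlap (difference 0.41 ± 0.13, 95% interval 0.14 to 0.69, adjusted p = 0.886). Thbd, the thrombin receptor thrombomodulin of endothelium and meninges, had 6.55 (6.13 to 6.78) in TNF + IL-6 High, against 6.19 (5.72 to 6.27) in TNF + IL-6 Low (difference 0.38 ± 0.12, 95% interval 0.12 to 0.64). Ptgds, the prostaglandin D synthase of leptomeninges and choroid plexus, had 0.37 ± 0.16. Slc22a6, an organic anion transporter named here after its value was seen, had 0.50 ± 0.17 (95% interval 0.14 to 0.86). The mean of the 27 markers was 6.31 to 7.22 in TNF + IL-6 High, against 5.97 to 6.78 in TNF + IL-6 Low, and the ranges overlapped. TNF + IL-6 High replicates 4 and 2 were the highest and TNF + IL-6 Low replicate 6 the lowest. Within rows the median was 0.106 in row F and 0.366 in row G.

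Vascular and glial lists had smaller differences. Over all genes 48.4% had a higher mean, and genes of a list can move together, so the counts below are descriptions. The part of tissue make-up in these lists was not tested. Of 17 tested markers of smooth muscle cells and pericytes, 13 had a higher mean in TNF + IL-6 High, with a median of 0.10. Tagln, an actin-binding protein of smooth muscle, was 5.10 to 5.78 in TNF + IL-6 High, against 4.91 to 5.45 in TNF + IL-6 Low (difference 0.40 ± 0.11, 95% interval 0.16 to 0.64), and Myl9, a myosin light chain, had 0.26 ± 0.10. Endothelial markers (18 tested) had a median of 0.06, which was -0.035 without TNF + IL-6 High replicate 2. Astrocyte markers (16 tested) had a median of 0.095, which was 0.036 without TNF + IL-6 High replicate 1 and 0.041 without TNF + IL-6 Low replicate 3. Of 19 microglia and macrophage markers, 17 had a higher mean, with a median of 0.08 that was 0.033 without TNF + IL-6 Low replicate 3, and 0 had an unadjusted p under 0.05 in limma. Tmem119, a microglial membrane protein, had 0.21 ± 0.12 and Csf1r, the receptor for colony stimulating factor, 0.14 ± 0.10. Of 17 oligodendrocyte markers, 15 had a higher mean with a median of 0.13, which was 0.06 without TNF + IL-6 Low replicate 3 and 0.04 without TNF + IL-6 High replicate 2. Blood cell markers (6 tested) had a median of 0.001, with 3 higher and 3 lower.

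Neighbouring brain regions were also traced, as a dissection can hold parts of them. Of 17 markers of cortex, hippocampus and thalamus, 10 had a lower and 7 a higher mean in TNF + IL-6 High (all genes, 51.6% lower). Rorb, a nuclear receptor of thalamic and cortical neurons, had 8.86 to 9.35 in TNF + IL-6 High, against 9.31 to 9.66 in TNF + IL-6 Low (difference -0.33 ± 0.09, 95% interval -0.51 to -0.15), while Lamp5, of cortical interneurons and other forebrain neurons, had 0.47 ± 0.15 (95% interval 0.14 to 0.79). Of 10 striatal markers, 9 had a higher mean (all genes, 48.4%), with a median of 0.18 (0.106 without TNF + IL-6 Low replicate 6). Among them were Penk (0.27 ± 0.12), the enkephalin precursor, and Drd1 (0.28 ± 0.13), a dopamine receptor. Chat, the enzyme of acetylcholine synthesis, had 0.56 ± 0.23 and Crym, a thyroid hormone binding protein, 0.56 ± 0.22, both among the 5 largest differences upwards. Kcnj13, a potassium channel of choroid plexus and meninges, had a median of 6.94 (5.62 to 7.55) in TNF + IL-6 High, against 6.24 (5.23 to 7.03) in TNF + IL-6 Low (difference 0.59 ± 0.31, 95% interval -0.07 to 1.25). Over the 16 marker lists, 251 genes were tested, of which 17 were higher and 8 lower at an unadjusted p under 0.05 (9.96%, against 4.22% of all genes). Meningeal fibroblast genes gave 6 of the 17. The lists were chosen with earlier results of these data known, and genes of a list can move together. The 2 shares are therefore a description and not a test.

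**Figure D5:**
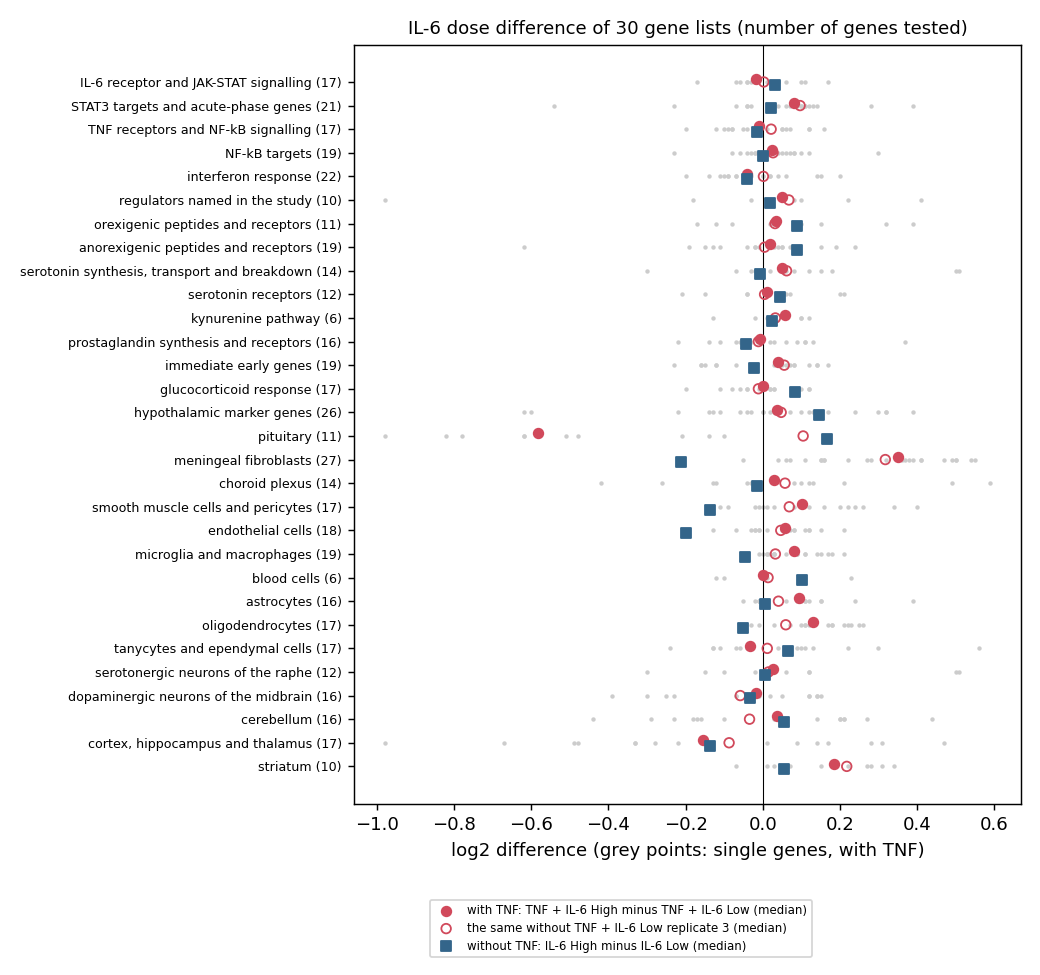
Log2 differences of 30 gene lists, with single genes as grey points. Filled red circles are the medians of TNF + IL-6 High minus TNF + IL-6 Low, open circles the same without TNF + IL-6 Low replicate 3, and blue squares the medians of IL-6 High minus IL-6 Low without TNF. The pituitary median lies at -0.58 with all arrays and above 0 without that array, and the meningeal fibroblast median is 0.35 with TNF and -0.21 without it.

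The same dose step without TNF shares no arrays with the comparison above. The difference between the dose effects, (TNF + IL-6 High minus TNF + IL-6 Low) minus (IL-6 High minus IL-6 Low), was tested in 1 limma fit of the 24 arrays. None of 14668 genes (0%) had an adjusted p under 0.05, and 376 (2.56%) had an unadjusted p under 0.05. The dose differences with and without TNF had a Pearson r of 0.13 over the genes (a description, as genes are not replicates), and 55.4% of genes had the same sign. Without TNF, 2 genes were higher and 3 lower by the fold.

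Single gene groups differed in how the step compared. All 13 genes of the larger set were also lower at the high dose without TNF (all genes, 44.9%), with differences of -0.69 to -0.23. These genes move together from array to array, so they are not separate observations. For the difference between the effects, 0 of 13 had an unadjusted p under 0.05. Its standard errors ran from 0.31 (Slitrk6) to 0.75 (Prkcd), and the genes were chosen on the values with TNF, so this count does not show equal effects. Meningeal fibroblast genes had a median of 0.35 with TNF and of -0.21 without it, where 26 of 27 were lower (all genes, 44.9%). For 5 of the 27 (Crabp2, Thbd, Slc22a6, Fmod and Igf2) the difference between the effects had an unadjusted p under 0.05 (all genes, 2.56%), and for 0 an adjusted one. Smooth muscle and pericyte genes likewise had a median of 0.10 with TNF and of -0.14 without it. Of these 17 genes, 5 had an unadjusted p under 0.05 for the difference (all genes, 2.56%). Genes of a list can move together, so these counts are descriptions. Cfap47, a protein of cilia, had -0.33 with TNF and 0.19 without it, and the effects differed by -0.52 ± 0.14 (SE). Zfp455 had -0.53 with TNF and 0.15 without it, which differed by -0.68 ± 0.19. Both genes were among those of smallest p with TNF, so the values that chose them also enter this difference, and neither passed the adjusted threshold. Npy had 0.32 with TNF and 0.22 without it.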

How the data were processed

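Hypothalamic RNA of TNF + IL-6 High mice was compared with that of TNF + IL-6 Low mice (6 arrays each, 1 mouse per array). The arrays were taken as separate animals from the mouse numbers. The numbers of TNF + IL-6 High replicates 5 and 6 also stand on Control arrays, as described above. The authors deposited log2 intensities after RMA (version not given in the sources used here). Rows of the table are the manufacturer's transcript clusters, not the remapped probe sets of the paper, and the values were used unchanged. Arrays have no read depth, and the number of arrays limits the precision.

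Of 35556 clusters, 21218 name 1 gene, 1881 several and 12457 none in GEO's platform annotation, and only the first kind was used. For the 1386 of 18820 genes that had several clusters, the cluster of highest mean was taken. Genes with an intensity over 20 on at least 3 of the 12 arrays were kept (14668). The study's methods use the same intensity limit with a minimum number of probes per gene, which was not applied here. lmFit and eBayes with an intensity trend (limma 3.58.1, R 4.3.3) were fitted to the 12 arrays, with Benjamini-Hochberg adjustment over all tested genes and a threshold of 0.05. The scripts were tested on simulated data. For Npy, Tph2 and Slc6a4, two-sided exact permutation tests were run (924 arrangements, smallest possible p 0.00216, Python 3.11.15).

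The comparison, the 30 gene lists (433 tested genes) and the genes to be named were chosen with earlier results of these data known. Named are the 10 genes of smallest p and the 5 of largest difference in each direction, Npy, Tph2, Slc6a4 and up to 2 genes of smallest p in each list, leaving out predicted genes, receptors of smell and taste, antigen receptor segments and small RNAs. Genes outside this rule were named after their values were seen. Promoters come from RefSeq. Alternatives were other intensity minima, centring, quantile normalization, array weights, no intensity trend, the intensity-based statistic of the study, fits over all 6 groups with and without 1 outlying TNF array, blocks, the mean of clusters, and leaving out arrays. Of the genes the paper names, 1 is not reported.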

Additional observations from a re-analysis of the deposited data

Results flagged for a closer look

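In each group of 6 arrays, the gap between the highest or lowest array and the nearest other array was divided by the group's range, and groups in which this ratio passed Dixon's 95% critical value for 6 samples were singled out. Of 202 groups (101 named genes in each of the treatment groups), 20 (9.90%) passed. Chance alone gives about 1 in 20 groups for genes picked without their values that vary independently. Neither holds here, as some of the genes were named after their values were seen and several move together on 1 array. The 2 rates are therefore not a test. TNF + IL-6 Low replicate 3 accounted for 10 of the 20. On TNF + IL-6 High replicate 1, Mrps26 (0.728, 6.94 against 6.54 on the nearest array) and Cartpt (0.921, 8.56 against 7.79 on the nearest array) were far above the other 5 arrays. On TNF + IL-6 High replicate 1, Tagln (0.629, 5.10 against 5.53 on the nearest array) and Esam (0.634, 5.72 against 6.27 on the nearest array) were far below the other 5 arrays. On TNF + IL-6 High replicate 2, Cntfr (0.779, 10.01 against 9.58 on the nearest array) was far above the other 5 arrays. On TNF + IL-6 High replicate 2, Stat5a (0.766, 4.75 against 4.97 on the nearest array) and Avp (0.656, 8.34 against 9.58 on the nearest array) were far below the other 5 arrays. On TNF + IL-6 High replicate 4, Ccdc102a (0.708, 5.39 against 5.03 on the nearest array) was far above the other 5 arrays. On TNF + IL-6 Low replicate 3, Chat (0.672, 5.61 against 4.76 on the nearest array), Tbx19 (0.916, 6.98 against 4.72 on the nearest array), Lhx3 (0.885, 5.36 against 4.53 on the nearest array), Cga (0.85, 11.38 against 5.66 on the nearest array), Fshb (0.862, 9.44 against 4.42 on the nearest array), Lhb (0.956, 10.64 against 5.23 on the nearest array), Oacyl (0.905, 9.78 against 5.2 on the nearest array), Pomc (0.862, 11.45 against 6.03 on the nearest array), Tc2n (0.639, 7.27 against 5.06 on the nearest array) and Lcn2 (0.675, 8.09 against 5.85 on the nearest array) were far above the other 5 arrays. On TNF + IL-6 Low replicate 4, Tnnc1 (0.646, 6.07 against 5.88 on the nearest array) was far above the other 5 arrays. On TNF + IL-6 Low replicate 5, Ptger3 (0.786, 6.21 against 5.65 on the nearest array) was far above the other 5 arrays.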

How the results depend on the processing

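The count of genes at an adjusted p under 0.05 was 0 under all 25 alternatives, and the smallest adjusted p ranged from 0.098 (array weights) to 1.00 (1 fit of 36 arrays). The number higher at an unadjusted p under 0.05 (194) was 107 with an intensity over 50, 348 with quantile normalization, 293 with array weights, 49 in the fit of 36 arrays and 293 with the row letter as a block. The number lower (425) was 88 in the fit of 36 arrays and 129 without TNF + IL-6 High replicates 5 and 6 together. The number higher by the fold (2) was 4 with no filter, 1 with an intensity over 50, 0 with median centring and 10 without those 2 arrays, and the number lower (20) was 10 without them. Genes with all TNF + IL-6 High arrays above (6) or below (14) all others numbered 1 and 12 with an intensity over 50, 11 and 12 with quantile normalization, and 29 and 29 without those 2 arrays. Leaving out 1 array gave 117 to 471 genes higher and 175 to 697 lower at an unadjusted p under 0.05, 1 to 14 higher and 10 to 31 lower by the fold, and 7 to 25 above and 15 to 47 below without overlap, where fewer arrays make overlap rarer.

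Over all genes, same-numbered arrays were not shown to be pairs. Of 6 pairs, 2 had correlated deviations over 0.1 (-0.09 to 0.59), and 1 of 6 TNF + IL-6 High arrays correlated best with its own number. Gh and Prl had their highest values on the same array numbers in both groups, Cga did not, and handling by number was not tested. With the replicate number as a block, 435 genes were higher and 466 lower at an unadjusted p under 0.05, and 0 passed the adjusted threshold.

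Of 101 named genes, 89 kept their sign in every setting in which they were tested. With array weights the difference was 0.05 for Oxt, -0.01 for Socs3, -0.01 for Stat3 and 0.05 for Nfkbia. Leaving out 1 array turned the sign of 10 genes. The ranges of their differences over the left-out arrays were Prl -1.66 to 0.35, Cga -1.12 to 0.23, Fshb -0.88 to 0.29, Lhb -1.03 to 0.11, Oacyl -1.01 to 0.00, Pomc -0.92 to 0.34, Gh -1.41 to 0.52, Oxt -0.16 to 0.18, Stat3 -0.04 to 0.07 and Il6ra -0.01 to 0.13. In the exact permutation tests, leaving out 1 array gave differences of 0.18 to 0.52 for Npy, 0.04 to 0.68 for Tph2 and 0.17 to 0.64 for Slc6a4, and leaving out TNF + IL-6 High replicates 5 and 6 together gave 0.23, 0.76 and 0.82 in that order. Of these 1 passed unadjusted, Npy without TNF + IL-6 High replicate 2 (0.52, exact permutation p = 0.00866). The interaction with TNF gave 0 genes at an adjusted p under 0.05 in all 27 settings tried. Dim signal limits some genes, and Oas1a, Trim54 and Rax were over an intensity of 20 on 3 TNF + IL-6 High arrays and 0 TNF + IL-6 Low arrays. The cause of each of these changes was not tested.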
